A study of Homo sapiens with 8 samples.

Results

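The sites described here are estrogen receptor (ER) binding sites on the far long arm of chromosome 20, in the segment around 20q13 that is known to be amplified in MCF7-derived breast cancer cells. Peaks with a −log10 q above 1.301 (q under 0.05) in the 4 ER peak lists were merged wherever they overlapped by at least 1 bp, and a merged site was kept as a member when the summit of its strongest peak lay at or beyond position 43000000 of chromosome 20 in GRCh38. This rule gave 1091 members of 25365 sites in all, which is 4.30% of the sites in a stretch that holds 0.726% of the known bases of the genome. The other 306 sites of chromosome 20 served for comparison.

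ER was immunoprecipitated from LY2 cells, an ER-positive, endocrine-resistant breast cancer line, after transfection with an siRNA against the kinase CDK12 (siCDK12) or a control siRNA (siCtrl). Every culture was serum depleted, was transfected for 48 h and then received 1 µmol/L of β-estradiol for 1 h, so the receptor was stimulated in both conditions. Peak lists were used for siCtrl replicates 2 and 3 and siCDK12 replicates 3 and 4, and nothing in the labels says whether the replicates were separate cultures, so p-values measure the spread between these libraries only. With 2 libraries per condition, the exact permutation test used here cannot give a p under 0.333, and whether CDK12 was depleted cannot be read from a peak list.

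At q under 0.05 the lists held 12021 and 4955 peaks for siCtrl and 4819 and 5224 for siCDK12. The list of siCtrl replicate 2 was the longest, and read depth is not given by the lists, so a site without a peak in a library was not called there and is not shown to be unbound. Each peak has a fold, which is the pileup of fragments at the summit over the local background that the peak caller expected there. The whole-number pileup and the background were solved from the deposited fold and p-value, and the background is given below as a multiple of the genome-wide background of the same library.

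ER is a ligand-activated transcription factor that binds as a dimer to the estrogen response element, a palindrome of a pair of half-sites around a spacer of unspecified bases, and it can also be held on DNA by other factors such as AP-1. Extra copies of 20q13 are common in breast cancer, and the segment carries the transcription factor gene ZNF217, the ER coactivator gene NCOA3 and CYP24A1, whose enzyme breaks down active vitamin D. A ChIP library holds more fragments from a region with more copies, whether or not a protein is bound there. The local background of a peak is given below for that reason, but it is not a measure of copy number, and its link to copy number was not tested.

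Of the members called in both siCtrl libraries, 6 held an element, taken as GGTCANNNTGACC with at most 1 mismatch among the 10 fixed bases within 100 bp of the summit. They are shown because they make up 6 of the 10 members whose mean siCtrl fold was at least 5. Capitals mark the element, and positions in it count from 1 at its 5′ end on the plus strand of GRCh38.
RIMS4 intron 2, chr20:44765723-44765785: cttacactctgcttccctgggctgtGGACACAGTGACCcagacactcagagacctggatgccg
Intergenic downstream of PREX1, chr20:48572355-48572417: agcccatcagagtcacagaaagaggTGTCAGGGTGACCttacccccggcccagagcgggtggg
Intergenic near UBE2V1, chr20:50076805-50076867: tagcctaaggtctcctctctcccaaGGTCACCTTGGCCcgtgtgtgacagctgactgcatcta
PTPN1 intron 3, chr20:50566532-50566594: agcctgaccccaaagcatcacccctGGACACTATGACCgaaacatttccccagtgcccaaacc
PTPN1 intron 4, chr20:50573651-50573713: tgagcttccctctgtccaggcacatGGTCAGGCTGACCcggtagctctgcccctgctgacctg
Intergenic near PFDN4, chr20:54195480-54195542: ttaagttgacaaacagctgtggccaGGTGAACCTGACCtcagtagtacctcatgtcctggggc

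The element in PTPN1 intron 4 had no mismatch, and the others had 1 each, T3A in RIMS4 intron 2 and PTPN1 intron 3, G1T downstream of PREX1, A11G near UBE2V1 and C4G near PFDN4. The distance from the centre of the element to the summit ran from 1 bp near UBE2V1 to 33 bp in PTPN1 intron 3.

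A further 2 windows of 101 bases around summits are shown, for the strongest member of the segment and for the highest-ranked lost member (called in both siCtrl libraries but in no siCDK12 library) with an AP-1 word. A member with the opposite presence is termed gained. Capitals mark the exact words AGGTCA (a receptor half-site) and TGANTCA (AP-1) on either strand.
Strongest member, upstream of PREX1, chr20:48864904-48865004: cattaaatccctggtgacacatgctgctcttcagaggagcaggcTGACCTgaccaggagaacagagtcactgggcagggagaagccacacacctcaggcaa
Lost member, downstream of CYP24A1, chr20:54149224-54149324: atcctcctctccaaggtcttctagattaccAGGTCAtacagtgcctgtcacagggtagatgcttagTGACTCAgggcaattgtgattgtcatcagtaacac

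A high local background was found in 4 blocks and not over the segment as a whole. The local background of the members had a median of 15.7 times the library background, against 1.09 times for the rest of chromosome 20, and it ran from 0.997 to 39.5 times. A total of 852 members (78.1%) lay over 3 times and 751 over 10 times, whereas 17 sites (5.56%) on the rest of the chromosome lay over 3 times and 0 over 10 times, with 5.77 times as the highest value. Runs of at least 5 members over 3 times, with neighbours at most 250 kb apart, formed the 4 blocks, whose background is therefore high by the way they were chosen. The blocks covered 3.45 Mb (16.2% of the segment) and held 844 members (77.4%). The other 247 members were spread over 17.9 Mb at a median background of 1.42 times.

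Block 1 (chr20:47150181-48911334) held 269 members at a median background of 17.1 times and spanned EYA2, ZMYND8, NCOA3, SULF2 and PREX1. Block 2 (chr20:50674291-50813863) held 33 members at 18.9 times over RIPOR3, PARD6B and BCAS4. Block 3 (chr20:53566873-54938852) held 463 members at 17.3 times over ZNF217, BCAS1, CYP24A1, PFDN4 and DOK5. Block 4 (chr20:57101054-57279670) held 79 members at 24.7 times over BMP7, which encodes a bone morphogenetic protein. The background was not even within blocks. In block 1, members within 10 kb of PREX1 had a median of 9.01 times, against 20.8 at ZMYND8 and 18.7 at NCOA3. In block 3 the median was 25.5 times at ZNF217 and 14.0 at DOK5. The nearest members beyond the block edges, 23880 to 127727 bp away, had backgrounds of 0.997 to 2.71 times. A member over 3 times at such a distance would have joined the block, so values of at most 3 times there follow from the rule. Outside the blocks 9 members exceeded 3 times, among them 3 at 22.4 to 26.2 times beyond block 3 and 2 at 12.8 and 32.2 times near STMN3, towards the chromosome end.

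**Figure D1:**
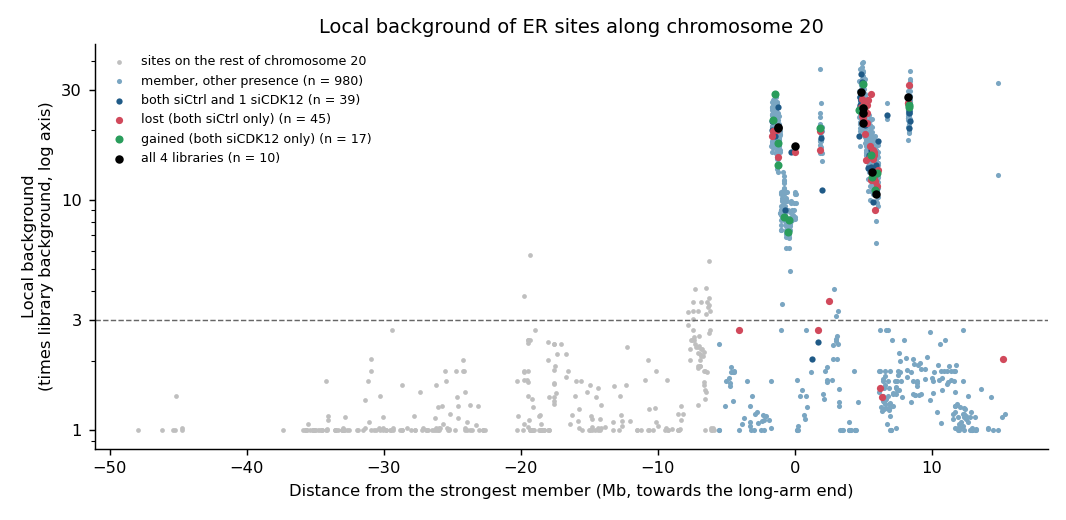
Local background of each site on chromosome 20 (vertical, log axis, times the library's genome-wide background) against its distance from the strongest member (horizontal, Mb), with members coloured by the libraries that hold a peak and the dashed line at 3 times. The members form 4 columns that reach 39.5 times, and all 17 gained members and all 10 members found in every library lie within those columns.

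In each of the 4 libraries the segment peaks had a median background of 13.6 to 16 times that on the rest of chromosome 20. The geometric mean of the ratios was 14.5, and the segment was higher in 4 of 4 libraries. The two-sided exact sign-flip permutation test gave p = 0.125, the smallest it allows with n = 4. When the segment was started at 50 Mb, which moves block 1 into the rest of the chromosome and so raises the value compared with, the ratio was 3.34. Among peaks with a fold of at least 5 it was 1.60, and without the 4 blocks it was 1.20. The blocks were drawn from members with a high background, so a lower ratio without them follows from that choice. Within the blocks the median background stood at 18.0 and 19.8 times for siCtrl, and at 18.2 and 19.3 times for siCDK12, and the condition means had a ratio of 0.993 (exact permutation test, p = 1.00). The siCDK12 values lay between the siCtrl values, so the background did not separate the conditions. Copy number was not measured, and whether the input libraries served as the background was not given in the sources used here.

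Peaks were packed more densely in the segment than on the rest of the chromosome. The segment held per Mb 23.1 and 16 peaks in the siCtrl lists and 12.8 and 14.8 in those of siCDK12, while the rest of chromosome 20 held 3.45, 1.55, 1.34 and 1.15 in the same order. The ratio of densities was 6.70 to 12.9 over the libraries, with a geometric mean of 9.61. The segment was denser in 4 of 4 libraries (two-sided exact sign-flip permutation test, p = 0.125). Most of the segment's peaks stood in the blocks, at 112, 83.4, 68.4 and 73.0 peaks per Mb. The rest of the segment held 5.98, 2.96, 2.07 and 3.58. Without the blocks the geometric mean of the ratios to the rest of the chromosome was 2.04. The blocks were drawn around runs of members, so their density, and the lower density left outside, follow in part from that choice. The ratio depended on the peaks and the region compared, at 28.4 when the −log10 q had to reach 3 and at 5.52 against the long arm before the segment.

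The excess was one of peaks with a low fold. Peaks in the blocks had median folds of 2.41, 2.27, 2.25 and 2.23 at median pileups of 47.0 to 53.0 fragments, and peaks in the rest of the segment had median folds of 4.21, 4.36, 4.04 and 4.09 at 10.0 to 11.0 fragments. On the rest of chromosome 20 the median folds were 4.30, 4.26, 4.24 and 4.14, within the range of the segment outside the blocks. A fold of 1.68 to 1.74 was enough to enter the list in a block, against a lowest fold of 2.78 to 3.11 on the rest of chromosome 20. Among peaks with a fold of at least 5, the siCtrl lists had 18 and 15 in the segment and the siCDK12 lists 1 and 4, of which 4, 4, 0 and 0 stood in blocks. With that threshold the geometric mean of the density ratios was 0.998 (exact sign-flip permutation test, p = 1.00). The ratio was above 1 in both siCtrl libraries and below 1 in both siCDK12 libraries.

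**Figure D2:**
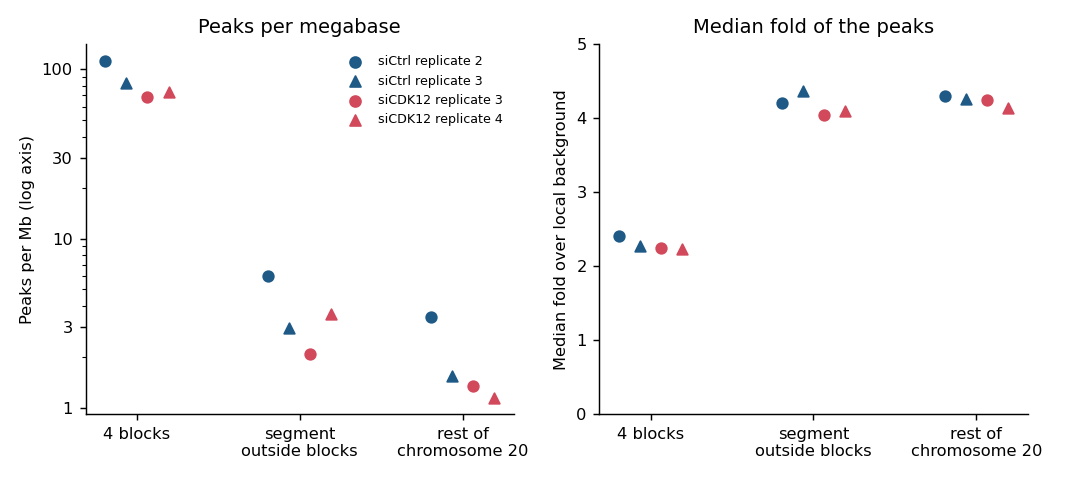
Peaks per Mb (left, log axis) and median fold over local background (right, axis from 0) in the 4 blocks, the rest of the segment and the rest of chromosome 20, with 1 point per library. The blocks hold 68.4 to 112 peaks per Mb at median folds of 2.23 to 2.41, and the other compartments hold at most 5.98 per Mb at median folds of 4.04 to 4.36.

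The comparison of siCDK12 with siCtrl asks how the receptor's binding differs after loss of the kinase. The siCtrl lists placed 493 and 341 peaks in the segment and the siCDK12 lists placed 273 and 316 there, a ratio of means of 0.706 (417 against 294, exact permutation test, p = 0.333). The conditions did not overlap, but siCtrl replicate 2 was the farthest from the others, and without it the ratio was 0.864. As a share of all peaks of the library, the segment held 4.10% (exact Clopper-Pearson 95% interval 3.75 to 4.47%) and 6.88% (6.19 to 7.62%) in siCtrl and 5.67% (5.03 to 6.36%) and 6.05% (5.42 to 6.73%) in siCDK12. The difference of the mean shares was 0.365 percentage points (exact permutation test, p = 1.00), with both siCDK12 values between the siCtrl values. Without siCtrl replicate 2 the difference was -1.02 points, and intervals throughout cover counting error only.

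Strong peaks of the segment were fewer in siCDK12. At a −log10 q of 5 or more, 101 and 52 peaks were left in siCtrl and 29 and 16 in siCDK12, a ratio of means of 0.294 (76.5 against 22.5, exact permutation test, p = 0.333), and the conditions did not overlap. Over the whole libraries such peaks numbered 809 and 468 in siCtrl and 130 and 109 in siCDK12. Of these strong peaks the segment took 12.5% and 11.1% in siCtrl, against 22.3% and 14.7% in siCDK12. Both siCDK12 shares were above both siCtrl shares, and the means differed by 6.70 percentage points (exact permutation test, p = 0.333). Of the 163 members with such a peak, 153 stood in blocks, where all peaks had median folds of 2.23 to 2.41. With a fold of at least 5 required instead, the difference of the mean shares was -1.08 points (exact permutation test, p = 0.333), which is the other way.

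The strongest member, chr20:48864816-48865093, lay 36955 bp upstream of the start of PREX1, a gene for a Rac exchange factor, at the far end of block 1. It reached folds of 15.9 and 9.64 in siCtrl against 4.18 and 2.96 in siCDK12, its pileups were 290, 202, 84 and 65 fragments, and its local background was 17.1, 17.3, 15.7 and 18.0 times. Fold and pileup were lower in both siCDK12 libraries than in both siCtrl libraries, while the ranges of the local background overlapped. By −log10 q it ranked 3 and 5 in the siCtrl lists and 9 and 29 in the siCDK12 lists, so it stayed among the leading peaks of each list. No element was found within 100 bp of its summit, and the half-site shown above was centred 3 bp from it.

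A separate member just beside it, chr20:48864493-48864688, had folds of 4.20 and 3.23 in siCtrl and no peak in siCDK12. The member with an element downstream of PREX1, chr20:48572257-48572509, had folds of 11.4 and 8.41 in siCtrl and 3.16 in siCDK12 replicate 3, with no peak in siCDK12 replicate 4. Its background was 16.2, 15.7 and 13.3 times in the 3 libraries that held it. Another strong member of block 1, chr20:48158059-48158301 in an intergenic stretch, was chosen after its values were seen and had folds of 11.9 and 9.27 in siCtrl and 3.10 in siCDK12 replicate 3.

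In block 3 the leading member was chr20:54195365-54195630, 12596 bp from the start of PFDN4, which encodes a subunit of the prefoldin chaperone. It had folds of 7.97 and 6.12 and pileups of 226 and 198 fragments in siCtrl at a background of 27.2 times in both, ranked 13 in both lists, and had no peak in either siCDK12 library. Within PFDN4 itself the picture was mixed, because chr20:54214646-54214905 in intron 2 had folds of 2.80 and 2.53 in siCtrl and 3.61 in siCDK12 replicate 3 and no peak in siCDK12 replicate 4. Downstream of CYP24A1, 24712 bp from its start, chr20:54149175-54149368 had folds of 4.57 and 2.55 and pileups of 114 and 116 fragments in siCtrl and no siCDK12 peak. The pileups there were nearly equal and the fold differed with the background, which was 23.9 and 38.7 times. Another lost member 50112 bp from the start of CYP24A1, chr20:54123749-54123976, had folds of 3.44 and 2.07.

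The members named here near ZNF217 and BMP7 had low folds, as peaks in the blocks did in general, with medians of 2.23 to 2.41. Between ZNF217 and BCAS1, chr20:53660086-53660439 had folds of 2.08 and 1.91 in siCtrl and 2.42 and 2.51 in siCDK12, with pileups of 73, 74, 77 and 89 fragments. It was the single member found in all 4 libraries whose siCDK12 folds both exceeded its siCtrl folds. In block 4 the intron 4 member of BMP7, chr20:57182218-57182560, had folds of 1.86 in siCtrl replicate 2 and 2.76 in siCDK12 replicate 4 and no other peak.

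NCOA3, which encodes a coactivator that ER recruits, had 52 members within its body or 10 kb of it, with 20, 16, 16 and 18 of them called in the libraries in the order siCtrl 2, siCtrl 3, siCDK12 3 and siCDK12 4. Of these, 2 were found in all 4 libraries, 2 were lost and 2 were gained. Over all members in blocks 1.18% were found in all 4 libraries, 4.62% were lost and 2.01% were gained. Nothing particular to NCOA3 is read from such small counts. The intron 2 member chr20:47610247-47610492 had folds of 2.11, 1.84, 2.14 and 1.85, and the exon 11 member chr20:47635376-47635670 had folds of 2.28, 2.09, 2.07 and 2.11. At the first the conditions overlapped, and at the second they overlapped too, with all 4 folds between 2.07 and 2.28. The gained member chr20:47615891-47616163 in the same intron 2 had folds of 2.54 and 2.71 in siCDK12.

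Outside the blocks 9 members were called in both siCtrl libraries, with mean siCtrl folds from 2.57 to 9.06, and 6 of them had a mean of at least 5. The other 3, none of them with an element, had mean folds of 4.25, 4.22 and 2.57, the last at a background of 23.4 times. In PTPN1, which encodes a tyrosine phosphatase, intron 4 held chr20:50573543-50573764 with folds of 8.57 and 6.43 in siCtrl at backgrounds of 2.71 and 3.29 times and no siCDK12 peak. Intron 3 held chr20:50566435-50566673 with folds of 12.2 and 5.79 in siCtrl and 4.39 in siCDK12 replicate 4. Both PTPN1 members carried an element.

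Near UBE2V1, a gene for a ubiquitin-conjugating enzyme variant, chr20:50076723-50077014 had folds of 9.49 and 5.18 in siCtrl and 4.78 in siCDK12 replicate 4. In intron 2 of RIMS4, chr20:44765613-44765891 had folds of 9.11 and 6.25 in siCtrl and no siCDK12 peak. In intron 1 of OPRL1, which encodes the nociceptin receptor, chr20:64080499-64080820 had folds of 11.1 and 6.98 in siCtrl, 542 bp from the start, without an element and without a siCDK12 peak. In exon 11 of NFATC2, a gene for a calcium-regulated transcription factor, chr20:51387610-51387800 had folds of 5.38 and 6.11 in siCtrl and was lost. At STMN3, a stathmin family gene, chr20:63657531-63657943 lay 45 bp from the start and had folds of 1.91 in siCtrl replicate 2 and 3.51 in siCDK12 replicate 3.

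**Figure D3:**
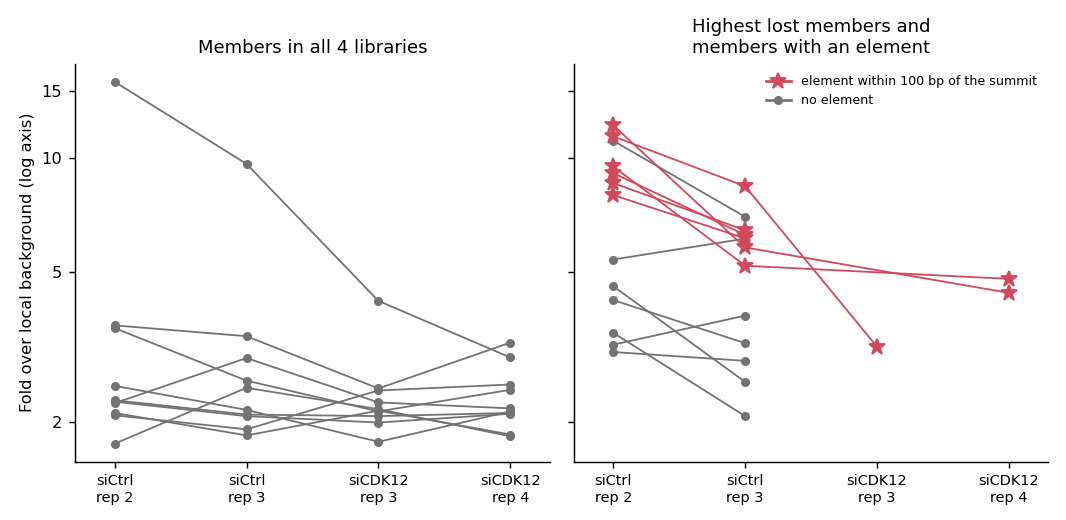
Fold over local background (log axis) by library for the 10 members found in all 4 libraries (left) and for the 10 lost members with the highest mean percentile plus the other members with an element in both siCtrl libraries (right), where each line is a member and a missing point means no peak. The strongest member has folds of 15.9 to 2.96, the other 9 on the left stay between 1.75 and 3.60, and members with an element (stars) have siCtrl folds of 5.18 to 12.2.

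Most members were seen once. A total of 851 members had a peak in 1 library, 163 in 2, 67 in 3 and 10 in all 4. Both siCtrl libraries called 94 members, which is 8.62% (7.02 to 10.4%) of them, against 2.63% of all sites of the series. Members called in both siCtrl libraries but in no siCDK12 library are termed lost, and there were 45 of them, or 4.12% (3.02 to 5.48%) against 1.79% of all sites. Only a site called in both siCtrl libraries can be lost, and on that base the order turned round. Of 94 such members 45 were lost, a smaller part than the 455 lost of 667 such sites of the series. Members with the opposite presence are termed gained, and there were 17 of them, or 1.56% (0.910 to 2.48%) against 0.343% of all sites. Members found in all 4 libraries made 0.917% (0.440 to 1.68%) against 0.260% of all sites. The members thus recurred more often than sites in general, in both conditions.

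The recurrent members stood mostly in the blocks. All 17 gained members and all 10 members found in every library stood in blocks, as did 39 of the 45 lost members and 85 of the 94 called in both siCtrl libraries. Of the 247 members outside, 9 were in both siCtrl libraries, 6 were lost and 0 were gained, which allows a share of gained members of up to 1.21% there when 3 counts are taken as the limit of a count of 0. On the rest of chromosome 20, 7 of 306 sites were in both siCtrl libraries, all 7 of them lost, and 0 were gained. Among sites on other chromosomes with a background over 10 times, 76 of 532 (14.3%, 11.4 to 17.6%) were in both siCtrl libraries, and among members at that background 83 of 751 (11.1%, 8.90 to 13.5%) were. The lost sites were 32 of 532 (6.02%) on other chromosomes and 38 of 751 (5.06%) among members. The gained sites were 11 of 532 (2.07%) and 14 of 751 (1.86%). The part of the local background in the recurrence of the members was not tested.

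Lost and gained members were set apart by their highest folds and not by their medians. The mean folds of lost members had a median of 2.38 and single folds ran from 1.79 to 11.1, and those of gained members had a median of 2.34 and ran from 1.77 to 3.36. In the full deposited lists, 4 of the 45 lost members had a siCDK12 peak that missed q under 0.05, as did 14 of the 455 lost sites of the series. The counts depend on which libraries are asked for, because a call in 1 siCtrl library and neither siCDK12 library was met by 246 or 358 members. Gained members by 1 siCDK12 library alone numbered 160 or 212.

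Of the 10 members in all 4 libraries, 4 had both siCDK12 folds under both siCtrl folds and 1 had both above, where 77.3% of the 66 such sites of the series had both under. Of the 49 members in both siCtrl libraries and at least 1 siCDK12 library, 23 had every siCDK12 fold under both siCtrl folds, against 68.4% of the 212 such sites of the series. The reverse order was found at 13 of the 49, against 12.3% of the 212. The order of folds was mixed among the members.

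**Figure D4:**
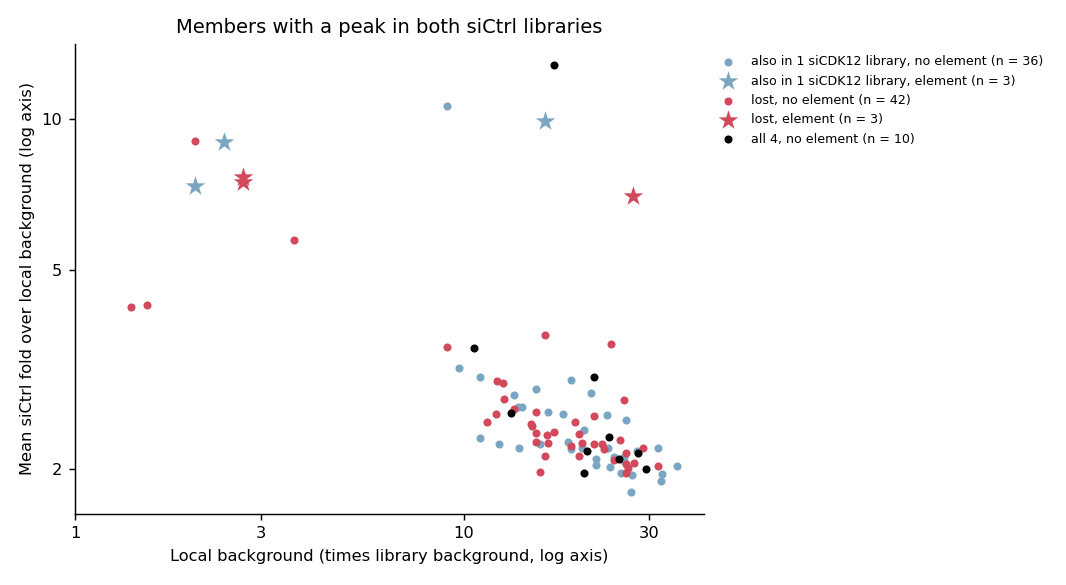
Mean siCtrl fold (vertical, log axis) against local background (horizontal, log axis, times the library background) for the 94 members called in both siCtrl libraries, coloured by presence in siCDK12, with stars for an element. The 6 stars have mean folds of 7.04 to 9.89, and the 83 members in blocks without an element have a median of 2.26.

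Elements were rare among the members, and those at members called in both siCtrl libraries stood at high folds. An element was found at 19 members, or 1.74% (1.05 to 2.71%), where all sites of the series gave 1.91% and windows 1000 bp away from the members gave 0.550%. Among members in both siCtrl libraries, 6 of 94 held one (6.38%, 2.38 to 13.4%), and 167 of 566 such sites on other chromosomes did (29.5%, 25.8 to 33.5%). Inside blocks the count was 2 of 85 (2.35%, 0.286 to 8.24%), and outside it was 4 of 9 (44.4%, 13.7 to 78.8%). On other chromosomes an element was found at 1 of 76 such sites (1.32%, 0.0333 to 7.11%) with a background over 10 times, at 35 of 119 (29.4%, 21.4 to 38.5%) of those at 3 to 10 times and at 131 of 371 (35.3%, 30.4 to 40.4%) of those at up to 3 times. With a fold of at least 5 required of both siCtrl peaks, 10 members were left, and 6 of them held an element (60%).

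None of the 17 gained members held an element (at most 17.6%, where a count of 0 is taken to allow 3 counts), and none of the 70 gained sites on other chromosomes did. The 10 members in all 4 libraries held 0 (up to 30%), against 16 of 56 such sites on other chromosomes and 0 of the 12 of these with a background over 10 times. The 55 members called in both siCDK12 libraries all stood in blocks and held 0 (up to 5.45%). On other chromosomes such sites held 16 of 158 (10.1%, 5.90 to 15.9%), and 0 of 48 where the background was over 10 times. Over all members the other words were about as common as at all sites. On either strand and without mismatch, the half-site AGGTCA was found in 18.5% of members and 19.2% of all sites of the series. Among members in both siCtrl libraries the half-site was found in 24.5% (16.2 to 34.4%), against 54.9% (50.7 to 59.1%) of such sites on other chromosomes and 21.1% (12.5 to 31.9%) of those with a background over 10 times. The AP-1 word TGANTCA was found in 7.42% of members and 6.49% of all sites. Of the 45 lost members 5 held it (11.1%, 3.71 to 24.1%). That interval includes the 8.44% of lost sites on other chromosomes and the 4.44% of windows 1000 bp away from the lost members. Forkhead words gave 2.29% and 3.23%, and GATA words gave 10.9% and 12.7%. Windows 1000 bp away from members held forkhead and GATA words more often, at 7.15% and 20.5%, as did those away from all sites, at 7.63% and 25.6%. The half-site and the AP-1 word were rarer in the windows away from members, at 14.6% and 5.77%. The half-site lies within part of the element, so these counts overlap.

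Repeated sequence was counted as well. A window of 201 bases was called repeated when more than 50% of its words of 16 bases occurred at least 10 times on chromosome 20. Of the 1091 members, 154 were repeated (14.1%, 12.1 to 16.3%), against 14.3% of all windows of the chromosome and 8.82% (5.90 to 12.6%) of the sites on its rest. The share was 15.6% (13.3 to 18.3%) in blocks, where windows 1000 bp away gave 13.5%, and 8.91% (5.67 to 13.2%) outside them. Members called in both siCDK12 libraries gave 23.6% (13.2 to 37.0%). Of the 17 gained members 6 were repeated (35.3%, 14.2 to 61.7%), and of the 45 lost members 5 were (11.1%, 3.71 to 24.1%). These intervals overlap.

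Members were mostly away from gene starts. By the canonical transcripts of GENCODE release 44, 50.8% were intergenic, 33.7% intronic and 3.67% exonic, and the remainder lay in noncoding genes or beyond the canonical transcript. Within 1000 bp of a protein-coding start stood 4 members (0.367%), among them those at OPRL1 and STMN3. The same shares were not taken for other sites, so nothing particular to the members is read from them.

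A list of 54 genes of the segment was read through for members within the gene or 10 kb of it, and 26 genes had at least 1. All 12 listed genes in blocks had members, and 14 genes outside did. Of the 25 genes reported as amplified on 20q13, 17 had a member, led by DOK5 with 80, BCAS1 with 52, BMP7 with 48, ZMYND8 with 38, SULF2 with 30, ZNF217 with 20 and EYA2 with 18. DOK5 encodes a docking protein of receptor tyrosine kinases, SULF2 an extracellular sulfatase and ZMYND8 a reader of chromatin marks. A lost member was found at 7 of these 25 genes and a gained one at 5, against 10 and 6 of all 54 listed genes. Of the 25 genes 10 stood in blocks, where members were dense, so nothing particular to these genes is read from the counts. At DOK5, 7 of its 80 members were lost and 1 gained, at BCAS1 4 of 52 were lost and 0 gained, and at BMP7 1 of 48 was lost and 2 were gained. Over all members in blocks 4.62% were lost and 2.01% were gained.

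Of the 9 genes for hormone response and receptor partners, 4 had a member, namely NCOA3 with 52, CYP24A1 with 7 of which 2 were lost, and PCK1 and NFATC2 with 1 each. Over all members in blocks 4.62% were lost, and the count at CYP24A1 is too small to compare with that share. None of the 8 genes for secreted protease inhibitors and matrix proteins, such as SLPI and MMP9, had a member. Of the 12 genes near the end of the arm, 5 had a member, CDH4 with 12 and RTEL1 with 3 among them.

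Just inside the threshold stood chr20:55462587-55462861 at a −log10 q of 1.3141, and just outside it chr20:54451377-54451739 at 1.3000, both in siCDK12 replicate 3. In all, 220 sites of the segment fell short of the threshold. The number of members was 447 at a −log10 q of at least 3 and 163 at 5 or more, of which 153 stood in blocks and 66 were found in 1 library.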

How the data were processed

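ER was immunoprecipitated from LY2 cells in 4 libraries used here, siCtrl replicates 2 and 3 and siCDK12 replicates 3 and 4, and the input libraries were not analysed here because no peak list of theirs was used. Per the study's methods, reads were filtered with SOAPnuke and aligned to GRCh38 with BWA-MEM, and narrow peaks were called with MACS2 under a limit on the false discovery rate (FDR). One list was deposited for each library. The submitters' processing notes also name FastQC, and DiffBind and DESeq2 for a comparison not used here. Whether the input served as the MACS2 control is not given in the sources used here. The deposited lists also hold peaks with q-values above that limit, which were left out here by the threshold given below. The authors deposited MACS2 narrowPeak lists, in which each peak has a score, a fold enrichment (a ratio of pileup to local background), a −log10 p-value, a −log10 q-value and the summit offset. Full lists held 15149, 6913, 6653 and 7229 peaks, and read depth is unknown.

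Peaks with a −log10 q above 1.301 were merged by an overlap of 1 bp. The whole-number pileup and its local background were found for each peak so that both the deposited fold, (pileup + 1)/(background + 1), and the Poisson p-value were met, and at least 99.986% of peaks matched within 0.001 of the −log10 p. The genome background of a library was the lowest background, to 2 decimals, shared by at least 50 of its peaks. Python 3.11.15, pandas 2.3.3, NumPy 2.4.6 and SciPy 1.17.1 were used. Functions were tested on simulated data. Peak numbers and shares were compared over libraries by two-sided exact permutation tests (2 against 2) or exact sign-flip tests (n = 4), and sites were never treated as replicates. Elements were sought on GRCh38 within 100 bp of summits, and genes were taken from GENCODE release 44. Shares have exact Clopper-Pearson 95% intervals, and for a count of 0 the limit given is 3 counts of the total. Ratios of density and of background over the libraries are geometric means.

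The members, gene lists and tests were chosen with earlier results of these data known, and the 4 blocks, the classes of background and the count of repeated words were chosen after seeing the values and were not tested. Members were named if found in all 4 libraries, if among the 10 lost or 5 gained that ranked highest by the mean percentile of their −log10 q, if among the 3 highest of a library, if in at least 2 libraries within 10 kb of a listed gene, or if next to the threshold, and the text describes a selection of these. Alternatives were other peak thresholds, segment starts, merging, comparison regions, element settings and leaving out each library.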

Additional observations from a re-analysis of the deposited data

How the results depend on the processing

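Of 112 alternatives, 77 kept the direction or stayed within 1.5 times the value (within its interval for the share with an element), 32 moved further and 3 reversed, and no p was under 0.05 in any of them. At a −log10 q of at least 3, of at least 5 and at a fold of at least 5, members numbered 447, 163 and 28, those in both siCtrl libraries 38, 16 and 10, lost members 24, 10 and 10, gained members 4, 2 and 0, members in all 4 libraries 2, 1 and 0, and the share with an element was 15.8%, 37.5% and 60%. All deposited peaks gave 17 members in all 4 libraries, a start at 50 Mb gave 10 gained members, and an element without mismatch was found at 1.06%. At a fold of at least 5 the difference of shares was -1.08 points, which is the other way. The density ratio there was 0.998, counted as reversed though it was almost 1, and the background ratio was 1.60. The density ratio was 28.4 at a −log10 q of at least 3, 5.52 against the long arm before the segment and 5.19 from 50 Mb, where the background ratio was 3.34, as block 1 then counts with the rest of the chromosome. Counts that each left out 1 library gave 781 to 948 members, 94 to 491 in both siCtrl libraries, 64 to 358 lost, 25 to 212 gained, 18 to 30 in all 4, a ratio of peak numbers of 0.597 to 0.864, a difference of shares of -1.02 to 1.76 points, a density ratio of 8.71 to 10.8 and a background ratio of 14.0 to 14.8. With a library left out, presence in all libraries of a condition asks for 1 library only, which is why those counts rise. The density ratio at a −log10 q of at least 5 could not be given, since a library had no such peak on the rest of chromosome 20. Alternatives added after seeing the data gave a ratio of peak numbers of 0.628 outside the blocks and 0.725 in them, and a density ratio of 2.04 and a background ratio of 1.20 without them. Both of the last ratios fall in part because the blocks were drawn from runs of members with a high background. No paired analysis was possible because siCtrl and siCDK12 have in common the single replicate number 3, and the input libraries with matching numbers have no peak list here. Groups of 2 libraries were too small to look for a library that stands apart by a test.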
